A study of Mus musculus with 8 samples.

Results

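Kcnn2, Chgb, Rab5a, Tm9sf1 and Anxa8 were followed in the mouse parotid gland, the serous salivary gland in front of the ear. These 5 genes were chosen by name, with earlier results of these data known. They come from the 46 genes that a printed probe with a RefSeq accession identifies on the array, among 60691 probes in all. Each of the 5 has 1 such probe, printed as 10 spots, and the remaining probes of the array were not matched to genes. RNA was taken from the frozen glands of male mice at 16 weeks of age, 4 of them db/db mice, a model of type 2 diabetes without a functional leptin receptor, and the comparison group was 4 arrays from db/m mice of the same age. Glands were removed under chloral hydrate anaesthesia, and no further treatment is given. Whether every db/m array came from its own animal is not stated, so the p-values speak of the spread among these arrays, which may in part be technical.

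The 5 genes belong to calcium signalling, secretory granules and membrane traffic, processes on which a salivary gland depends. In acinar cells, nerve stimulation raises calcium, calcium opens potassium and chloride channels that drive fluid secretion, and stored proteins leave by fusion of granules with the apical membrane. Kcnn2 encodes SK2, a small-conductance potassium channel that opens when calcium binds its calmodulin subunit. Chgb encodes chromogranin B, an acidic protein of dense-core granules. Rab5a encodes a GTPase of early endosomes, Tm9sf1 a membrane-spanning protein of the transmembrane 9 family, and Anxa8 an annexin, a protein that binds phospholipid membranes in the presence of calcium.

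Of the 5 genes, Kcnn2 was higher in db/db glands, at 1.44-fold, and Tm9sf1 was 1.25-fold lower. Chgb, Rab5a and Anxa8 did not pass the test. The 2 calls among 5 genes stand beside 27.8% of 54638 tested probes called at an adjusted p below 0.05, with 15.9% higher and 11.9% lower in db/db. A share of that size is not a result about these genes as a group. The median difference of the 5 genes was 0.11 on the log2 scale, against 0.03 over all tested probes and 0.25 over 38 other named coding genes, of which 22 were called. Of all called probes, 57.1% were higher in db/db, and with normexp background correction 46.0% were.

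The share of spots well above background was 89.4% to 92.3% on the db/db arrays and 85.3% to 89.3% on the db/m arrays. The signal at the 75th percentile was 345.2 to 378.9 on the db/db arrays and 317.4 to 347.7 on the db/m arrays. All arrays lay on 1 slide and were read in 1 scan, with db/m in slide row 1 and db/db in slide row 2, so slide row and group cannot be told apart. Levels below are log2 intensity minus the log2 of the array's 75th percentile, where 0 is the 75th percentile, and they compare arrays for 1 probe, not probes with each other. None of 12 acinar and 10 duct marker genes fixed for the tissue had a named probe, so the labelled tissue was not checked against its markers here. In whole glands, fewer cells of a type and less RNA per cell cannot be told apart.

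The first question was whether the calcium-activated channel gene differs between the glands. Kcnn2 stood at -0.09, -0.19, -0.31 and -0.29 in db/db replicates 1, 2, 5 and 8. In db/m replicates 2, 5, 7 and 8 it stood at -0.45, -0.83, -0.75 and -0.95. The lowest db/db array thus lay above the highest db/m array, db/m replicate 2, and db/m varied more, with an SD of 0.22 against 0.10 (n = 4 each). Groups without overlap in either direction were found for 30.7% of all tested probes. The difference was 0.53 ± 0.12 (SE, limma adjusted p = 0.0105, 95% interval 0.26 to 0.79), and the exact two-sided permutation test gave p = 0.0286, the smallest that 4 arrays against 4 allow.

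The probe of Kcnn2 was measured with little technical spread. The SD over its 10 spots was between 0.03 and 0.09 per array, and no spot was left out. The spot signal was 10.5 to 20.6 times the local background. At each of the 10 spot positions the db/db mean lay above the db/m mean, by 0.47 to 0.57. These positions are repeat readings of the same RNA and not replicates. Without db/m replicate 2, the highest of its group, the difference was 0.62, and without db/m replicate 8, the lowest, it was 0.46. With the replicate number as a block the call was lost (limma adjusted p = 0.0650). The array gives Kcnn2 by an accession that is 1 of its 2 curated RefSeq transcripts. Which transcripts the probe reads is not given in the sources used here. Tm9sf1 and Anxa8 also have 2 curated transcripts each, and the same limit holds for their probes.

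Among tested probes of like brightness, the difference of Kcnn2 was fairly large. With the tested probes divided by mean level into 10 classes of equal size, 1 the dimmest, it falls in class 7, where the median difference was -0.01, where 31.1% of probes were called and 17.4% had a larger difference in either direction. Kcnn2 was the only gene with a named probe among 31 of calcium-activated and secretory ion transport. The channels best known in parotid acinar cells, Kcnn4, Kcnma1 and the chloride channel Ano1, were not analysed here.

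**Figure D1:**
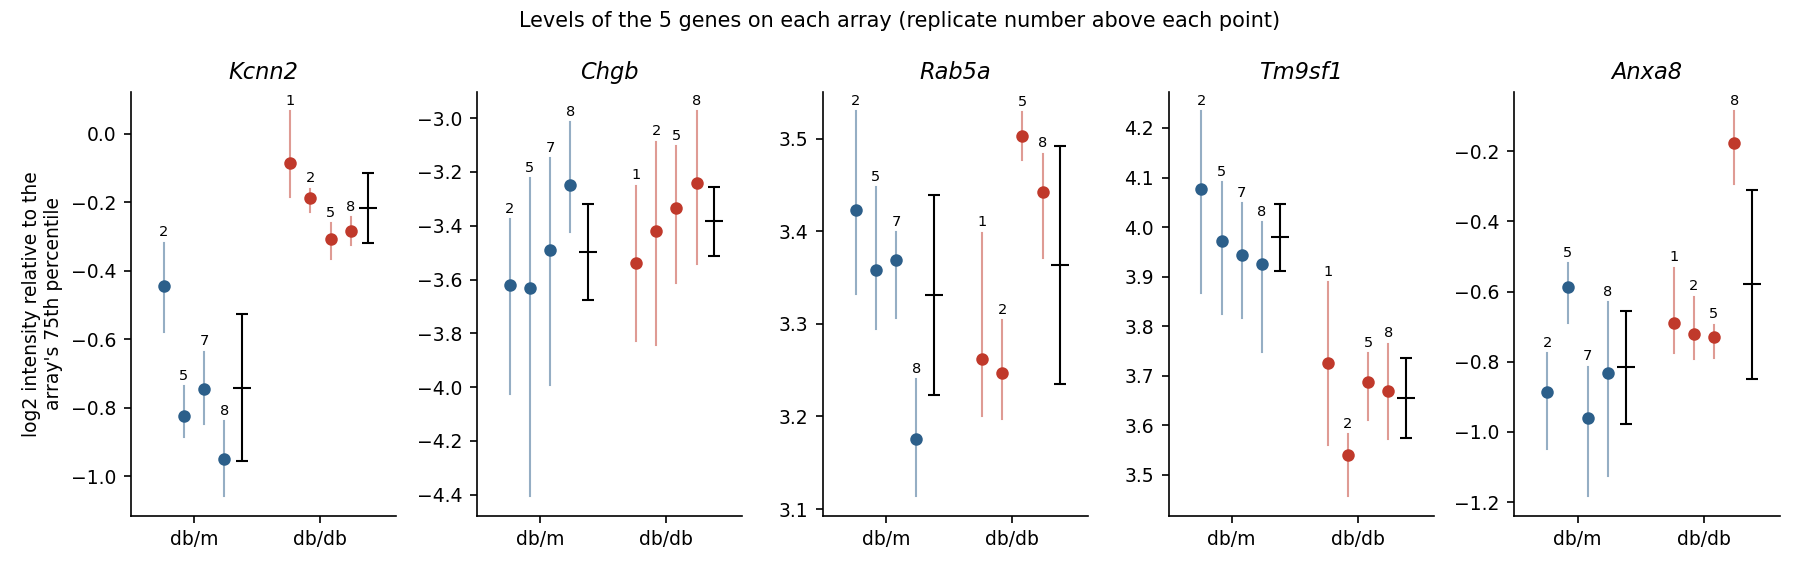
Log2 intensity relative to the 75th percentile of the array (vertical axis, its own scale for each gene) for db/m in blue and db/db in red; each point is 1 array with its replicate number, the thin line spans the lowest to the highest spot used, and the black bar is the group mean with SD (n = 4). The groups lie apart for Kcnn2 and Tm9sf1 and overlap for Chgb, Rab5a and Anxa8, where db/db replicate 8 stands at -0.18.

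For the granule gene Chgb no difference was detectable at this signal. Db/db replicates 1, 2, 5 and 8 read -3.54, -3.42, -3.33 and -3.24. Levels were -3.62, -3.63, -3.49 and -3.25 in db/m replicates 2, 5, 7 and 8. The groups overlapped, since db/m replicate 8 lay within the db/db range, and 12 of 16 pairings of a db/db with a db/m array had the db/db array higher. The difference was 0.11 ± 0.11 (SE, limma adjusted p = 0.483), with a 95% interval of -0.14 to 0.37.

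Chgb was the dimmest of the 5 probes against its own background. The spot signal was 2.47 to 3.63 times the local background, although all 10 spots were well above background on every array. The SD over spots reached 0.41, in db/m replicate 5, and 7 of its 80 spots were left out as outliers. By spot position the difference ran from -0.10 to 0.51, and it was above 0 at 9 of 10. Left-out spots put both ends on fewer arrays. The 0.51 lacks db/m replicates 2 and 8, and the -0.10 lacks db/m replicate 2. At positions with no spot left out it ran from 0.05 to 0.22. Between scalings the value moved across 0, from 0.11 as given to 0.02 with quantile normalization and -0.03 with normexp. Without db/m replicate 8 it was 0.20. In brightness class 2, where Chgb falls, the median difference of all probes was itself 0.09. Chgb was the only one of 17 granin and dense-core granule genes with a named probe, and none of 18 genes of salivary granule exocytosis had one.

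The endosome gene Rab5a gave close values in both groups. It stood at 3.26, 3.25, 3.50 and 3.44 in db/db replicates 1, 2, 5 and 8, and at 3.42, 3.36, 3.37 and 3.18 in db/m replicates 2, 5, 7 and 8. The highest array was db/db replicate 5 and the lowest db/m replicate 8, with the others interleaved. The difference was 0.03 ± 0.10 (SE, limma adjusted p = 0.834). Its 95% interval, -0.18 to 0.25, corresponds to between 0.881-fold and 1.19-fold, so larger changes in either direction lie outside it. The sign turned to -0.01 without db/db replicate 5 and to -0.02 without db/m replicate 8.

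Rab5a was a bright probe with a narrow spread over spots, from 0.02 to 0.06 in SD per array. The difference by spot position ran from 0.0049 to 0.0754 over 9 positions. At the remaining position 7 of 8 arrays had their spot left out as an outlier, so it gave no difference. In brightness class 10, where Rab5a falls, 92.9% of probes had a larger difference in either direction. Rab5a was the only one of 20 genes of Rab5 and the early endosome with a named probe.

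Tm9sf1, whose family resides in endosomes and the Golgi apparatus, was lower in db/db. It stood at 3.73, 3.54, 3.69 and 3.67 in db/db replicates 1, 2, 5 and 8. In db/m replicates 2, 5, 7 and 8 it stood at 4.08, 3.97, 3.94 and 3.92. All db/db arrays lay below all db/m arrays, and the gap between db/db replicate 1 and db/m replicate 8 was the narrowest. Arrays of a group lay close together, with an SD of 0.08 among db/db and 0.07 among db/m (n = 4 each). The difference was -0.32 ± 0.08 (SE, limma adjusted p = 0.0160, 95% interval -0.50 to -0.14), and the exact two-sided permutation p was 0.0286, the smallest possible.

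The fall of Tm9sf1 was small in size and even over the probe's spots. By spot position it ran from -0.38 to -0.23, below 0 at all 10. The -0.23 came from position 1, where spots of db/db replicates 2, 5 and 8 were left out. It thus sets db/db replicate 1 alone against db/m, and the smallest fall at another position was -0.26. The spot signal was 221.3 to 302.0 times the local background, and 3 of 80 spots were left out. Leaving out each array kept the call, with adjusted p from 0.0178 to 0.0452. A block on the replicate numbers, which gave no sign of pairing the arrays but are too few to exclude it, ended it (adjusted p = 0.103). In brightness class 10, where Tm9sf1 falls as well, 37.9% of probes were called, and 38.3% had a larger difference in either direction, so a change of this size was common at that brightness. Tm9sf1 was the only one of the 4 genes of its family with a named probe.

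**Figure D2:**
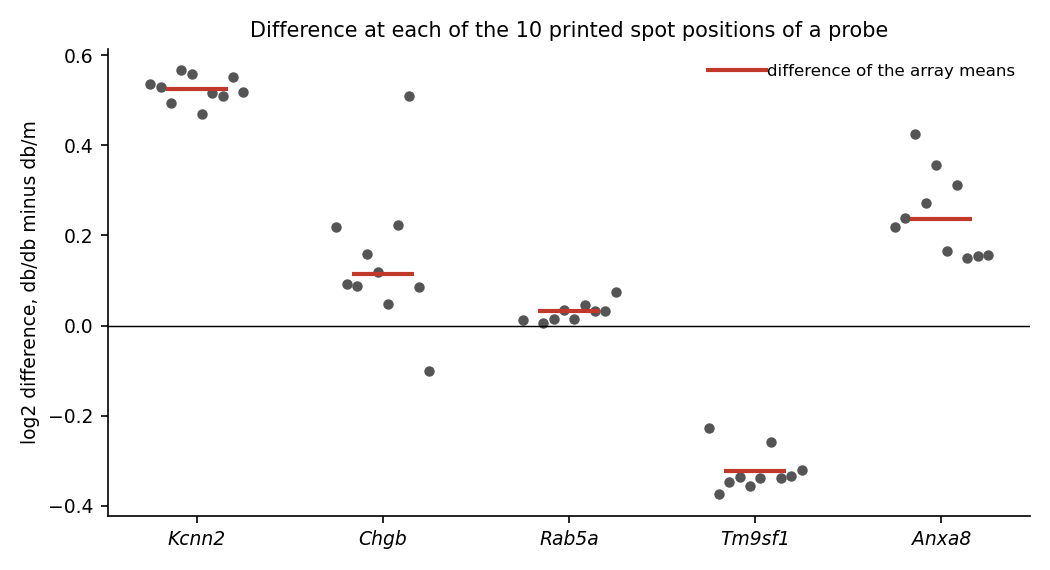
Log2 difference between the db/db and db/m means (vertical axis) at each spot position of a probe, as grey points, with the difference of the array means as a red bar. The points of Kcnn2 (0.47 to 0.57) and Tm9sf1 (-0.38 to -0.23) lie on one side of 0. So do those of the uncalled Anxa8 (0.15 to 0.43) and Rab5a, while those of Chgb spread from -0.10 to 0.51. Rab5a has 9 points because the remaining position gave no value in db/db. Spots left out put some points on fewer arrays. The -0.23 of Tm9sf1 has db/db replicate 1 alone, and both ends of Chgb lack db/m arrays.

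Sequence upstream of 3 of these genes is shown to place them beside the signal that drives protein secretion in this gland, since beta-adrenergic stimulation acts there through cyclic AMP. The cyclic AMP response element, TGACGTCA, which reads the same on both strands, occurs in the RefSeq promoter windows of Chgb and Rab5a and not in those of Tm9sf1 or Anxa8. It occurs in 1.79% of 32851 RefSeq windows of the same 300 bases (250 before and 50 after a start). The E-box CACGTG, also the same on both strands, occurs in 7.15% of windows and at 2 places in that of Rab5a. Kcnn2 is not among the 4 genes listed, so the windows cover 1 of the 2 called genes. TATAAA on either strand occurs in none of the 5 windows of those 4 genes, against 13.6% of all windows, and CCAAT on either strand in that of Rab5a, against 37.4%. No matches overlapped. The 250 bases before the start follow, 5′ to 3′ along the gene, with TGACGTCA and CACGTG in capitals. In build GRCm38.p6 they are chr2:132781392-132781641 (plus strand) for Chgb, chr17:53478984-53479233 (plus strand) for Rab5a and chr14:55643372-55643621 (minus strand) for Tm9sf1, the first of its 2 windows.
Chgb: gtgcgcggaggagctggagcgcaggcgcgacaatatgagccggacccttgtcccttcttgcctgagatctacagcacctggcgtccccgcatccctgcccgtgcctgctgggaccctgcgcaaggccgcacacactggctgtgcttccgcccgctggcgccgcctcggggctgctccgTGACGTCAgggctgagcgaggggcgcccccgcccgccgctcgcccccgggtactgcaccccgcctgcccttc
Rab5a: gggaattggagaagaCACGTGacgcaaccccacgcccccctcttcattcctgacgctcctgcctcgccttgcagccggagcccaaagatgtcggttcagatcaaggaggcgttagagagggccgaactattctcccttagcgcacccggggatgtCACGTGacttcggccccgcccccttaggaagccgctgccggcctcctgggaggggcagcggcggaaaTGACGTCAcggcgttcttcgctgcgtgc
Tm9sf1: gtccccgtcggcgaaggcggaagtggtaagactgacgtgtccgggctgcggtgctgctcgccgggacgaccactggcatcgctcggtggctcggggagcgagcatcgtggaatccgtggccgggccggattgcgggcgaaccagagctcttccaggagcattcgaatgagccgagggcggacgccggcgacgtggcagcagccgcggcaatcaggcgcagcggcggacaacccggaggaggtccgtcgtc
Counted from the start, with -1 the base before it, the element begins at -72 in Chgb and at -28 in Rab5a, and the E-boxes of Rab5a begin at -235 and -95. Neither Chgb nor Rab5a passed the test, and Tm9sf1, which fell, has neither element in these windows. A match in letters is a description and not a measured binding site.

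For the annexin gene Anxa8 the groups overlapped. Db/db replicates 1, 2, 5 and 8 read -0.69, -0.72, -0.73 and -0.18. Levels were -0.89, -0.59, -0.96 and -0.83 in db/m replicates 2, 5, 7 and 8. Db/db replicate 8 stood above every other array, while the other db/db arrays, at -0.73 to -0.69, lay below db/m replicate 5. The difference was 0.24 ± 0.14 (SE, limma adjusted p = 0.254), and without db/db replicate 8 it was 0.10 (adjusted p = 0.530).

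The high reading of db/db replicate 8 was present over the probe's spots. They ran from -0.29 to -0.09 there, with no spot left out, whereas the highest spot of the other db/db arrays was -0.53. By spot position the difference of the group means ran from 0.15 to 0.43. The myelin gene Mbp, 1 of 9 nerve markers and the only one with a named probe, was also highest in db/db replicate 8, at -1.23, with the other arrays between -1.88 and -1.69. Its part in the Anxa8 reading was not tested. Anxa8 was the only one of 14 annexins and their S100 partners with a named probe.

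**Figure D3:**
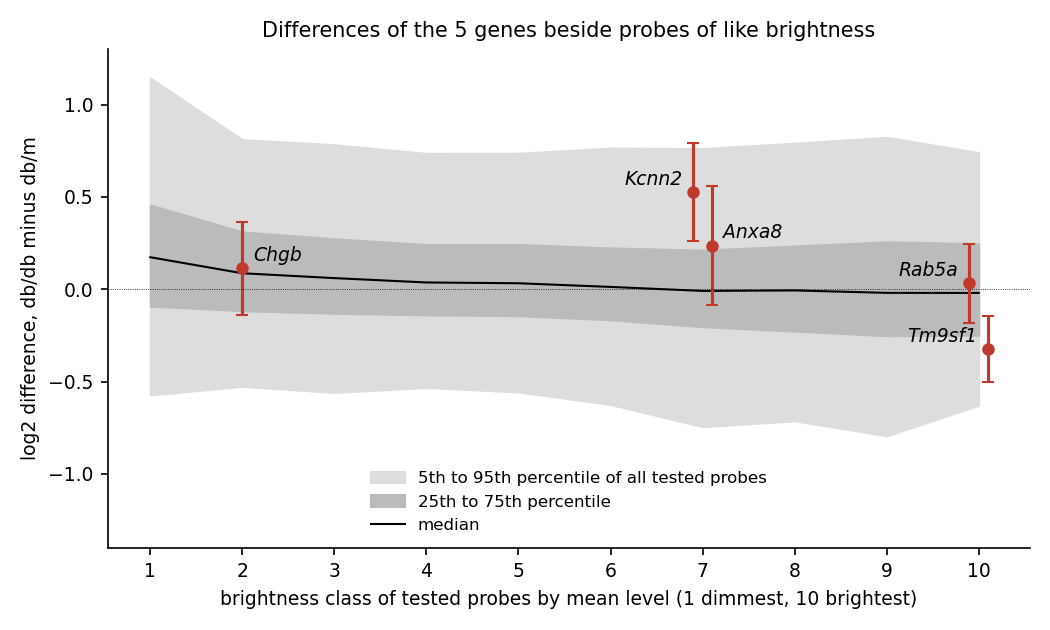
Log2 difference, db/db minus db/m (vertical axis), against the brightness class of tested probes by mean level (horizontal axis, 1 dimmest to 10 brightest); red points are the 5 genes with 95% intervals, the grey bands span the 5th to 95th and 25th to 75th percentiles of all tested probes in that class, and the line is their median. Kcnn2 (0.53), Anxa8 (0.24) and Tm9sf1 (-0.32) lie outside the inner band, and all 5 lie inside the outer band.

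A constant added to all log2 values of an array, such as its percentile, cancels in the ratio of 2 genes, and all 10 pairs of the 5 genes were compared in this way. The ratio of Kcnn2 to Tm9sf1 was 1.80-fold higher in db/db, a change of 0.85 on the log2 scale, with an SD of 0.12 among db/db arrays and 0.15 among db/m arrays (n = 4 each). Groups did not overlap for that pair, for Kcnn2 over Rab5a (0.49), for Rab5a over Tm9sf1 (0.36) or for Tm9sf1 over Anxa8 (-0.56). All of them include Kcnn2 or Tm9sf1, whose groups already lay apart singly, so they are not separate from those results. The share of such pairs among other probes was not computed. Each of these 4 pairs had an exact two-sided permutation p of 0.0286, the smallest possible. Benjamini-Hochberg adjustment over the 10 pairs gave 0.0714, so none passed. A pair can pass only if most of the 10 reach that smallest p, so the adjusted test cannot decide on a single pair. Kcnn2 over Anxa8 changed by 0.29 (exact p = 0.229, adjusted 0.286) and Chgb over Rab5a by 0.08 (exact p = 0.657, adjusted 0.657). Quantile normalization and normexp act unequally on bright and dim probes and so do move the ratios: Chgb over Rab5a was then -0.04 and -0.09, and the groups overlapped for Kcnn2 over Rab5a (exact p = 0.0571 under each). That Kcnn2 passed the test and Anxa8 did not therefore does not show that the 2 genes differ in response.

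**Figure D4:**
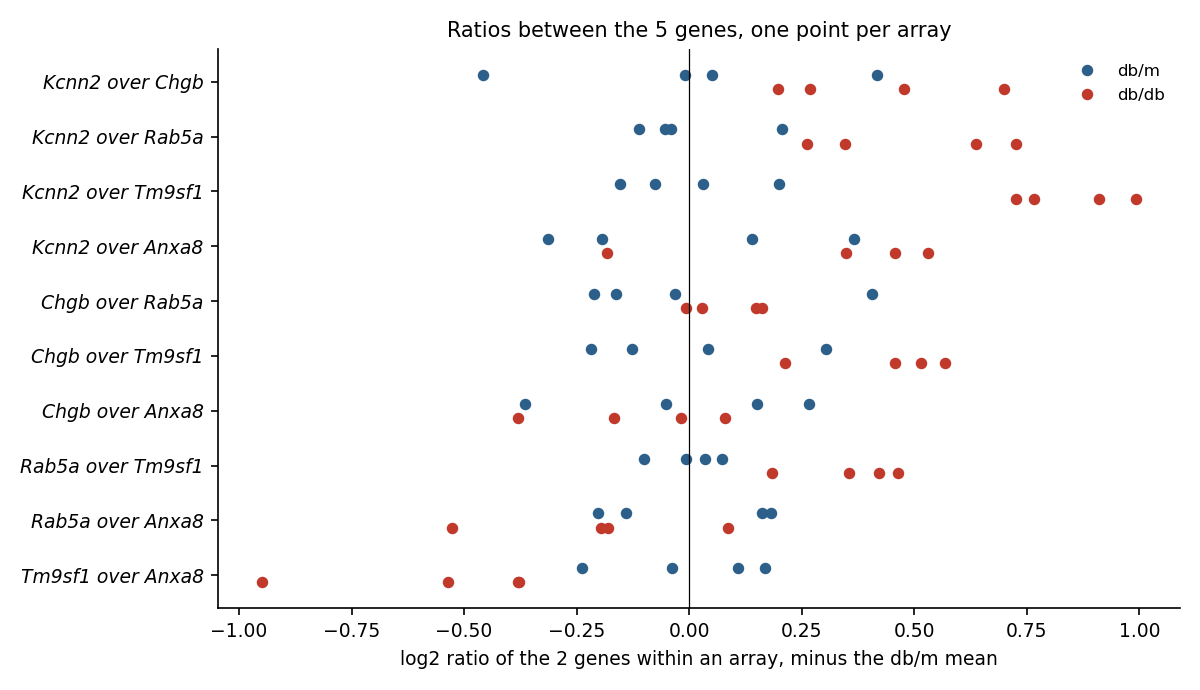
Log2 ratio of 2 genes within each array, minus the db/m mean of that ratio (horizontal axis), for the 10 pairs of the 5 genes (vertical axis); each point is 1 array, db/m in blue and db/db in red. The db/db points lie wholly to the right of db/m for Kcnn2 over Tm9sf1, where the mean change is 0.85, and wholly to the left for Tm9sf1 over Anxa8 (-0.56).

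Within groups the 5 genes did not move as a block from array to array. Over the 8 arrays, correlations of deviations from the group means ran from -0.72, between Kcnn2 and Chgb, to 0.58, between Kcnn2 and Tm9sf1. Arrays share labelling and scaling, so these values describe the arrays as well as the genes. Among the 42 other named coding genes, those whose deviations were most like a member's are given here. Each has Pearson's r over 8 arrays, then Spearman's rho, then r without the 2 arrays farthest from that like gene's median deviation. The highest of 42 values is high by choice, and no p is given. For Kcnn2 they were Taf1a (0.78, 0.60 and 0.93) and Alkbh4 (0.73, 0.60 and -0.16), the latter resting on the 2 arrays left out. For Chgb they were Dnajc11 (0.87, 0.93 and 0.84) and Duox1 (0.82, 0.79 and 0.70). Rab5a was most like Uhrf1bp1l (0.86, 0.86 and 0.93) and Cpt1a (0.85, 0.81 and 0.73), and Tm9sf1 most like Carhsp1 (0.83, 0.86 and 0.74) and Gsdmd (0.78, 0.74 and 0.53). For Anxa8 they were Mbp (0.94, 0.74 and 0.49) and Gsta4 (0.80, 0.64 and 0.54). The arrays left out for Mbp include db/db replicate 8, where both Anxa8 and Mbp were high.

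Few further genes of these pathways or of other cell types could be read. Of 115 genes in 7 pathway lists, 6 had a named probe, the 5 members and Cav2, a caveolin of membrane invaginations, which rose by 0.74 ± 0.11 (SE, limma adjusted p = 0.00131). Of 63 marker genes in 8 cell type lists, 4 had one. Mzb1, 1 of 8 plasma and B cell markers, lay between 0.65 and 1.43 in db/db and between -0.16 and 0.20 in db/m, and rose by 1.09 ± 0.16 (adjusted p = 0.00145). Hspb7, 1 of 5 muscle markers, fell by 0.44 ± 0.08 (adjusted p = 0.00319), from -2.60 to -2.46 in db/m to -3.04 to -2.89 in db/db. Il2, 1 of 7 macrophage and T cell markers, fell by 0.36 ± 0.09 (adjusted p = 0.0163), from -4.09 to -3.87 in db/m to -4.48 to -4.23 in db/db. Il2 falls in brightness class 1, the dimmest, where the median difference of all probes was 0.17. Its own difference was -0.51 with quantile normalization and -0.19 with normexp. Mbp, the nerve marker named above, differed by 0.23 ± 0.12 (adjusted p = 0.203). Mzb1, Hspb7 and Il2 move with the same contrast as Kcnn2 and Tm9sf1, and their part in those differences was not tested.

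**Figure D5:**
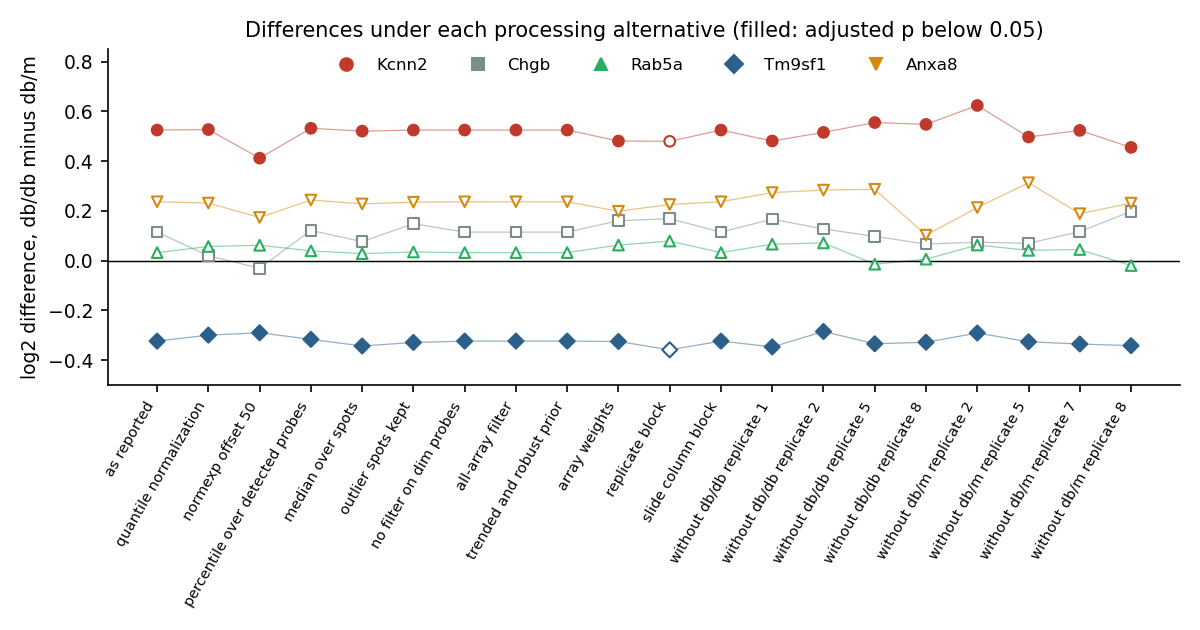
Log2 difference, db/db minus db/m (vertical axis), of the 5 genes as reported and under each processing alternative fitted with limma (horizontal axis); filled symbols have an adjusted p below 0.05. Kcnn2 stays between 0.41 and 0.62 and Tm9sf1 between -0.36 and -0.28, while Chgb and Rab5a cross 0.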

How the data were processed

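RNA was depleted of ribosomal RNA and labelled with Cy3 by random priming, per the labels. Spot intensity was read with Agilent Feature Extraction 11.0.1.1, and the deposited processed intensity is already background-corrected, per the file headers. The authors also deposited a log2 table of 60641 probes, with column medians of 6.51 and a method not given in the sources used here. It holds 0 of the 50 accession probes and was not used further.

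Log2 processed intensity minus that of the array's 75th percentile of non-control spots was averaged over the spots of a probe, without spots marked as outliers (18 to 55 per array). No non-control spot was saturated. Accessions were matched to RefSeq genes of GRCm38.p6 (46 of 50 matched). The design header names another build, mm9, so no probe coordinates are given. Probes well above background on at least 4 of 8 arrays were tested with limma 3.58.1 in R 4.3.3 (db/db minus db/m, two-sided, Benjamini-Hochberg over all 54638). Single values used exact permutation tests in Python 3.11.15. The fit was tested on simulated data. For normexp, spot medians and local background medians with an offset of 50 were used, since the planned spot means are not among the columns used here. The number of arrays limits the precision.

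The text names all 5 members, measured genes of the fixed lists, and the 2 genes most like each member. Members and lists were chosen with earlier results of these data known.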

Additional observations from a re-analysis of the deposited data

Results flagged for a closer look

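Within groups of 4 arrays, 46 sets of values were checked for an array far from the others, and 3 were found; chance gives about 1 in 20. The level of Anxa8 on db/db replicate 8, -0.18, was apart from the -0.73 to -0.69 of the remaining db/db arrays. That array also had the high Mbp level of -1.23, against -1.76 to -1.69 on the remaining db/db arrays. In db/m replicate 5 the scanner software marked 55 spots as outliers, with 29 to 33 on the other db/m arrays.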

How the results depend on the processing

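Each gene's difference was recomputed or tested again under 20 alternatives. The changed filters, the other prior, the slide column block and the exact test leave each difference as it was. They could change only the call, and so could keeping outlier spots for Kcnn2, which had none. Kcnn2 and Tm9sf1 kept direction and call in 19 of the 20. Anxa8 was not called in any of the 20, and neither were Chgb and Rab5a. The 19 include the exact permutation test, read at its unadjusted p of 0.0286, since it was not adjusted over all probes. With the replicate block Kcnn2 was 0.48 (limma adjusted p = 0.0650) and Tm9sf1 -0.36 (adjusted p = 0.103), with unadjusted limma p of 0.0128 and 0.0288, which left 0 members and 8518 probes called, against 15176 without it. Since db/db replicate 1 and db/m replicate 7 have no counterpart, the block drops them from the estimate, which rests on 3 numbers found in both groups. Deviations from the group means correlated at -0.02 for number 2, -0.13 for number 5 and -0.17 for number 8. For 0 of these 3 was the like-numbered array the closest. The numbers thus gave no sign of a pairing, but 3 are too few to exclude one. With the slide column as a block both calls held (limma adjusted p of 0.0145 and 0.0453). Deviations correlated at 0.06, -0.02, 0.08 and -0.17 for slide columns 1, 2, 3 and 4. The same-column array was the closest for columns 1 and 3. A difference of at least 2-fold left 0 members and 2823 probes. Chgb turned to -0.030 with normexp; the cause was not tested. Leaving out each array gave 0.46 to 0.62 for Kcnn2, 0.07 to 0.20 for Chgb, -0.020 to 0.071 for Rab5a (below 0 without db/db replicate 5, at -0.014, and without db/m replicate 8, at -0.020), -0.35 to -0.28 for Tm9sf1 and 0.10 to 0.31 for Anxa8. It left 2 members called each time and 10544 to 16164 probes. Of the member pairs, 0 passed under the 4 alternatives run. There too a pair could pass only if most pairs reached the smallest exact p. With 3 arrays against 4 the exact test cannot go below 0.0571, so arrays were not left out for the pairs. Chgb had the lowest signal over background of the 5, 2.47 to 3.63.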
